A study of Homo sapiens with 20 samples.

Results

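The mRNA described here carries ATP8 and ATP6, 2 of the 13 protein-coding genes of the human mitochondrial genome. Its members are the positions from the first base of ATP8 to the last base of ATP6 on the mitochondrial chromosome of GRCh38, taken by RefSeq gene coordinates. They span 8366 to 9207, 842 of the 16570 positions listed in each profile. ATP8 runs from 8366 to 8572 (207 bases) and ATP6 from 8527 to 9207 (681 bases), and all of these bases are coding. The 46 bases from 8527 to 8572 belong to both genes. They are given apart, so that 161 positions of ATP8 and 635 positions of ATP6 lie outside the overlap. The choice of positions used no measured value.

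Both proteins are translated from 1 mRNA, in reading frames that overlap. ATP6 is the subunit of the ATP synthase that forms the path for protons through the inner membrane beside the rotating ring, and ATP8 is a small membrane subunit of the stalk next to it. The mRNA follows the tRNA for lysine in the precursor transcript and is followed by COX3 without a tRNA between them. The last base of ATP6, 9207, is also the first base of COX3. Pseudouridine is an isomer of uridine that synthases make in an RNA after transcription, and in mitochondria it is found in rRNA, tRNA and some mRNAs.

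The series measured pseudouridine in mitochondrial RNA of K562 cells, a human leukaemia cell line, after mitochondria had been isolated by fractionation. CMC, a carbodiimide whose adduct remains on pseudouridine and interferes with the reverse transcriptase at that base, was used at 0.5 M. Of 20 samples, 14 were treated with CMC and carry a profile, and 6 were untreated and enter only through the subtraction that the authors made. Each profile holds 1 signed difference per position, CMC minus untreated, which is called the level here. No unit is stated, and from its values it was taken to be in percentage points. The groups were the NME6 knockout with wild-type NME6 cDNA added back (rescued cells, 3 libraries), the NME6 knockout (4), the RPUSD4 knockdown (3) and control cells with a non-targeting sgRNA (4). All 4 groups are K562 cells. The rescued samples, untreated and CMC-treated, carry numbers in the series apart from those of the other groups, which run on without a gap. Whether they were prepared or sequenced apart is not stated. Such a difference could not be told apart from the rescue in any comparison of rescued cells. RPUSD4 is the pseudouridine synthase of mitochondria known for its site in 16S rRNA. NME6 belongs to the nucleoside diphosphate kinases and is located in mitochondria. The labels do not say whether the knockout is 1 clone, by what means RPUSD4 was knocked down, or whether replicates are separate cultures. P-values therefore measure only the spread between these libraries, which may be technical. Identical negative levels showed that libraries of a group also share what was subtracted. Rescued cells and the RPUSD4 knockdown have 1 untreated sample each, and the other groups 2. An error of the subtracted profile is common to its group and absent from this spread. It enters every group difference, test, count of non-overlap and ratio of stretches given here. Its size was not measured.

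Read depth is unknown, and a level of exactly 0 may mean that no read covered the position. Between 15.2% and 18.9% of the 842 positions were at exactly 0 in the rescued libraries, between 32.4% and 67.6% in NME6 knockout libraries, between 28.6% and 51.0% in RPUSD4 knockdown libraries and between 20.5% and 48.3% in control libraries. Replicate 1 of the NME6 knockout and replicate 1 of the control stood apart, with the highest share at 0 in their group and the lowest mean levels of all 14 libraries. The mean level of the whole mRNA and the limma calls of its positions are given with and without them. The same holds for the rescued shares in ATP8 and ATP6 outside the overlap of both genes. The means of the overlap, the exact tests and the levels relative to the library mean are given only with them. So are the windows, the counts of non-overlap and the ranking of genes. Base letters were not used here, so a position named below need not be a uridine.

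Most of the mRNA lay close to 0. The mean over the 14 libraries had a median of 0.0674 points over the 842 positions. In single libraries the median level ran from 0 to 0.0743 points. Averaged over all libraries, 39 positions reached 0.5 points and 5 reached 1 point. The 39 positions held 24.9% of the summed mean level. The last position inside the limit of 1 point had a mean of 1.11 and the first outside it 0.926. At the other end, 8 positions were at 0 in all 14 libraries and 11 had a mean below 0.

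**Figure D1:**
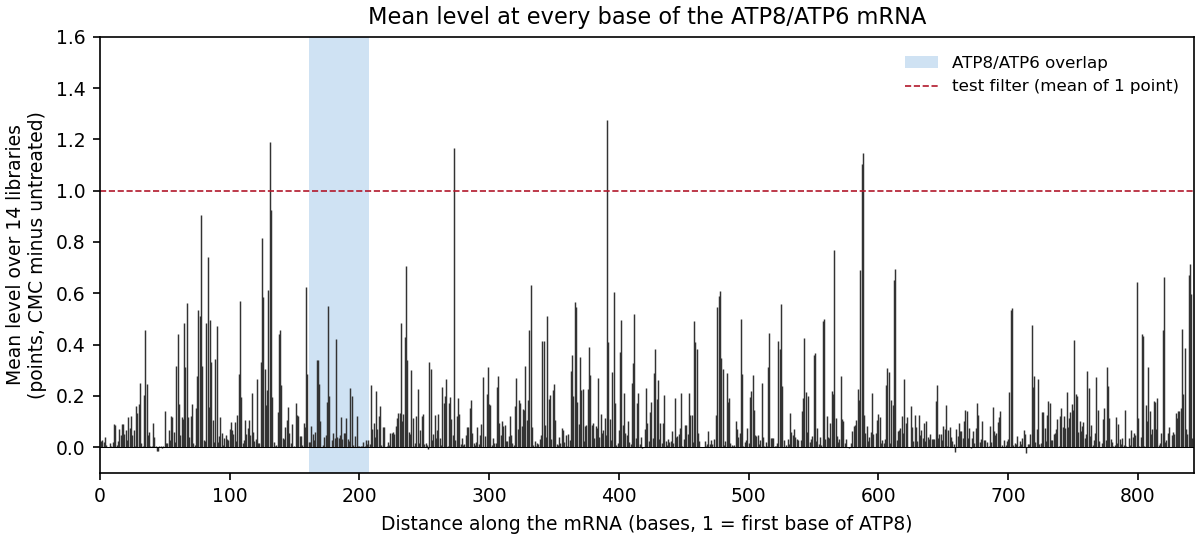
Mean level over the 14 libraries (vertical axis, percentage points) at each base of the mRNA (horizontal axis, bases from the first base of ATP8), with the overlap of both genes shaded and the limit of 1 point dashed. A total of 5 bases reach the limit, 1 in ATP8 and 4 in ATP6, and none of them lies in the overlap.

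The level also varied along the mRNA, and the groups had their highest stretches at different places. In 17 consecutive windows of 50 bases (42 in the last), the mean over all libraries was highest in 2 adjacent windows, 0.197 points at 8416 to 8465 and 0.196 points at 8466 to 8515, both within ATP8. It was lowest at 9016 to 9065 in ATP6, with 0.0582 points, and in the first window, with 0.0655 points. By group, the highest window was 8416 to 8465 in rescued cells (0.214 points), 8466 to 8515 in the NME6 knockout (0.208 points), the last window, 9166 to 9207, in the RPUSD4 knockdown (0.253 points) and 8916 to 8965 in the control (0.206 points). The first window held the ATP8 start codon, whose 3 bases (8366 to 8368) were at 0 in all NME6 knockout and all control libraries. RPUSD4 knockdown replicate 1 alone had 0.331, 0.288 and 0.277 points there, and rescued replicate 3 had 0.0789 points at 8367.

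High positions often came in adjacent pairs or triplets. The 39 positions formed 25 separate runs, of which 9 held at least 2 neighbours and none was longer than 3. Together these 9 runs contained 23 of the 39 positions. Within single libraries the correlation between a position and the next one ranged over 0.323 to 0.503 (841 pairs of positions), and over 0.0521 to 0.205 for positions 1 base further apart. Neighbours share a library and its reads, so these values describe the profile and are not tests.

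In ATP8 outside the overlap, the highest position was 8496, base 131 of ATP8 in codon 44, with a mean of 1.19 points over the 14 libraries. Its level was 1.06, 1.23 and 1.22 points in the rescued libraries, 0.8293, 1.84, 1.59 and 0.941 points in the NME6 knockout, 1.63, 1.05 and 0.503 points in the RPUSD4 knockdown and 0.770, 1.43, 1.25 and 1.31 points in the control. All 4 groups overlapped at this position, and the rescued libraries lay closest together. The neighbouring base 8497 averaged 0.926 points and fell just below the limit. Its level was 0.710, 0.907 and 0.436 points in rescued libraries and 0.175, 1.18, 1.21 and 1.47 points in control libraries, which again overlapped.

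The other high positions of ATP8 were 8443 (mean 0.904 points), 8490 (0.814 points) and 8448 (0.742 points). At 8443, the RPUSD4 knockdown averaged 1.27 points and the control 0.800 points. At 8490, all 3 rescued libraries, at 0.395, 0.423 and 0.507 points, were below the 4 NME6 knockout libraries, at 0.695, 0.840, 0.866 and 0.519 points, and below the 4 control libraries, at 0.733, 1.01, 0.964 and 1.10 points. Neither 8443 nor 8490 reached the limit for the test.

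Within the 46 shared bases, levels were lower than in either gene's own stretch in every group mean. The highest position was 8541 (base 176 of ATP8 and base 15 of ATP6), with group means of 0.383 points in rescued cells, 0.573 points in the NME6 knockout, 0.823 points in the RPUSD4 knockdown and 0.453 points in the control. It was the only shared base with a mean of at least 0.5 points. The next highest, 8547, averaged 0.422 points over all libraries, and 8532, 8533 and 8534 averaged 0.342, 0.342 and 0.247 points. The ATP6 start codon (8527 to 8529) lies in this stretch. Over all libraries its second base was the highest of the 3 (0.0829 points). In the NME6 knockout and in rescued cells the third base was higher (0.0597 against 0.0362 points, and 0.0841 against 0.0396 points). The second base had 0.286, 0.201 and 0.168 points in the RPUSD4 knockdown libraries, against 0, 0.108, 0.0799 and 0.0547 points in the control libraries. The knockdown and the control did not overlap there, at a level far below the limit for the test. How many positions of such a level do the same was not counted. The bases of the ATP8 stop codon (8570 to 8572) had means over all libraries of 0.0285, 0.0116 and 0.0294 points.

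In ATP6 outside the overlap, 4 positions reached 1 point. The highest of the whole mRNA was 8756, base 230 of ATP6 in codon 77, with a mean of 1.28 points. Its level was 1.41, 1.31 and 1.19 points in rescued libraries, 0.579, 1.51, 1.12 and 1.33 points in the NME6 knockout, 1.50, 1.85 and 1.04 points in the RPUSD4 knockdown and 1.24, 1.39, 1.31 and 1.10 points in the control. All groups overlapped, and only NME6 knockout replicate 1 was below 1 point.

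Position 8638, base 112 of ATP6 in codon 38, averaged 1.17 points over all libraries. It had 0.897, 0.848 and 0.701 points in rescued libraries, 0.571, 1.38, 1.22 and 0.855 points in the NME6 knockout, 1.45, 1.59 and 2.23 points in the RPUSD4 knockdown and 0.303, 1.53, 1.56 and 1.19 points in the control. The knockdown libraries were above all 4 NME6 knockout libraries, but 2 control libraries reached into the knockdown's range.

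Positions 8952 and 8953 are neighbours, the last base of codon 142 and the first base of codon 143 of ATP6, with means of 1.11 and 1.15 points. At 8952 the rescued libraries had 0.496, 0.550 and 0.529 points, the NME6 knockout 1.02, 1.55, 1.44 and 1.35 points, the RPUSD4 knockdown 1.48, 0.762 and 1.64 points and the control 0.847, 1.54, 1.14 and 1.13 points. Every rescued library was below every other library. At 8953 the rescued libraries had 0.520, 0.628 and 0.540 points, against 1.07, 1.56, 1.44 and 1.34 points in the NME6 knockout and 0.604, 1.96, 1.25 and 1.13 points in the control. The rescued libraries were again below all NME6 knockout libraries, and overlapped the control through control replicate 1. The fifth highest position of ATP6 was 8931, with 0.770 points over all libraries and a range of 0 to 1.59 points within the control alone.

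**Figure D2:**
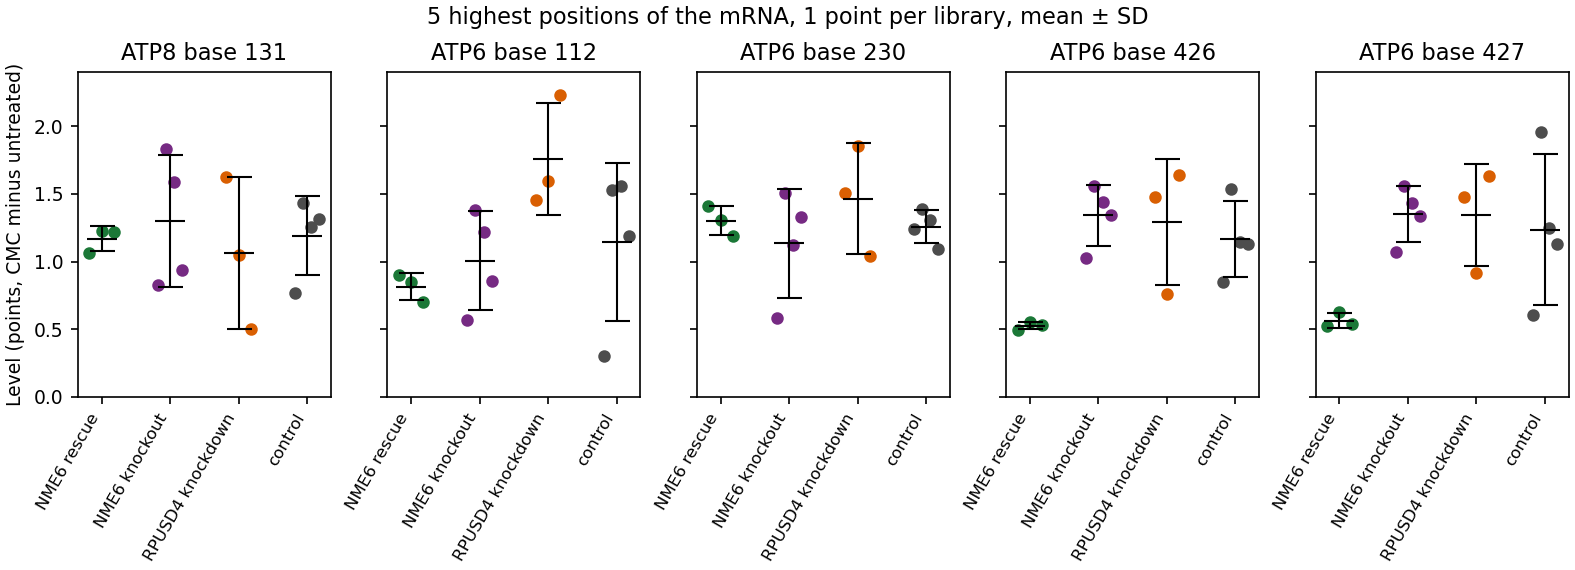
Level (vertical axis, percentage points) at the 5 positions with a mean of at least 1 point, numbered by base of their gene, with 1 point per library, a bar at the group mean and whiskers of 1 SD. At ATP6 bases 426 and 427 (positions 8952 and 8953) the rescued libraries lie between 0.496 and 0.628 points.

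At the end of the mRNA, 3 consecutive bases were raised and the next was not. The ATP6 stop codon is 9205 to 9207. Base 9205 averaged 0.572 ± 0.176 points in rescued cells (SD, n = 3), 1.01 ± 0.597 points in the NME6 knockout (n = 4), 0.524 ± 0.415 points in the RPUSD4 knockdown (n = 3) and 0.661 ± 0.396 points in the control (n = 4). Base 9204, just before the stop codon, averaged 0.528, 1.05, 0.439 and 0.572 points in the same groups, and base 9206 0.490, 0.764, 0.487 and 0.587 points. All groups overlapped at these 3 bases. Base 9207, shared with COX3, averaged 0.120 points in rescued cells, 0.0173 points in the NME6 knockout, 0 in all 3 knockdown libraries and 0.0192 points in the control.

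Over the whole mRNA the rescued libraries had mean levels of 0.103, 0.0981 and 0.0970 points. The NME6 knockout libraries had 0.0782, 0.162, 0.146 and 0.147 points, the RPUSD4 knockdown libraries 0.174, 0.159 and 0.127 points and the control libraries 0.0814, 0.156, 0.143 and 0.156 points. The group means were 0.0994 ± 0.00322 points in rescued cells (SD, n = 3), 0.133 ± 0.0375 points in the NME6 knockout (n = 4), 0.153 ± 0.0235 points in the RPUSD4 knockdown (n = 3) and 0.134 ± 0.0358 points in the control (n = 4). All 3 rescued libraries were below all 3 knockdown libraries, a pair for which no comparison was planned, and every other pair of groups overlapped. The NME6 knockout and the control differed by -0.000804 points, far less than the spread within either group.

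The rescued mean was 74.5% of the NME6 knockout mean and 74.1% of the control mean, and it lay inside both ranges only because of replicate 1 of those groups. Without these libraries the NME6 knockout averaged 0.152 ± 0.00903 points and the control 0.152 ± 0.00768 points (SD, n = 3 each), and no rescued library reached either. The lower level was not limited to this mRNA. Over all 16570 positions the rescued mean was 0.111 points, 78.0% of the NME6 knockout mean of 0.143 points and 79.6% of the control mean of 0.140 points. Without the replicates 1 these means over all positions were 0.162 points in the NME6 knockout and 0.158 points in the control. When each library was divided by its mean absolute level over untested positions, the difference of the mRNA shrank to -0.00318 points against the NME6 knockout and to -0.00537 points against the control.

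The rescued cells were lower relative to the NME6 knockout and the control in ATP6 than in ATP8. In ATP8 outside the overlap the mean level was 0.145 ± 0.0115 points in rescued cells, 0.156 ± 0.0372 points in the NME6 knockout, 0.169 ± 0.0364 points in the RPUSD4 knockdown and 0.142 ± 0.0359 points in the control. In the overlap these means were 0.0676, 0.0834, 0.110 and 0.0961 points. In ATP6 outside the overlap they were 0.0902 ± 0.00313, 0.131 ± 0.0380, 0.152 ± 0.0256 and 0.135 ± 0.0350 points. Rescued cells thus had 1.02 times the control mean in ATP8 and 0.667 times in ATP6. Without control replicate 1 these became 0.909 and 0.592 times, so that the rescued mean of ATP8 was then below the control mean. Against the NME6 knockout they were 0.928 and 0.687 times, and 0.831 and 0.601 times without its replicate 1. In ATP6, the rescued libraries lay at 0.0920, 0.0920 and 0.0866 points and the control libraries at 0.0837, 0.157, 0.143 and 0.157 points, so that only control replicate 1 was below them.

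**Figure D3:**
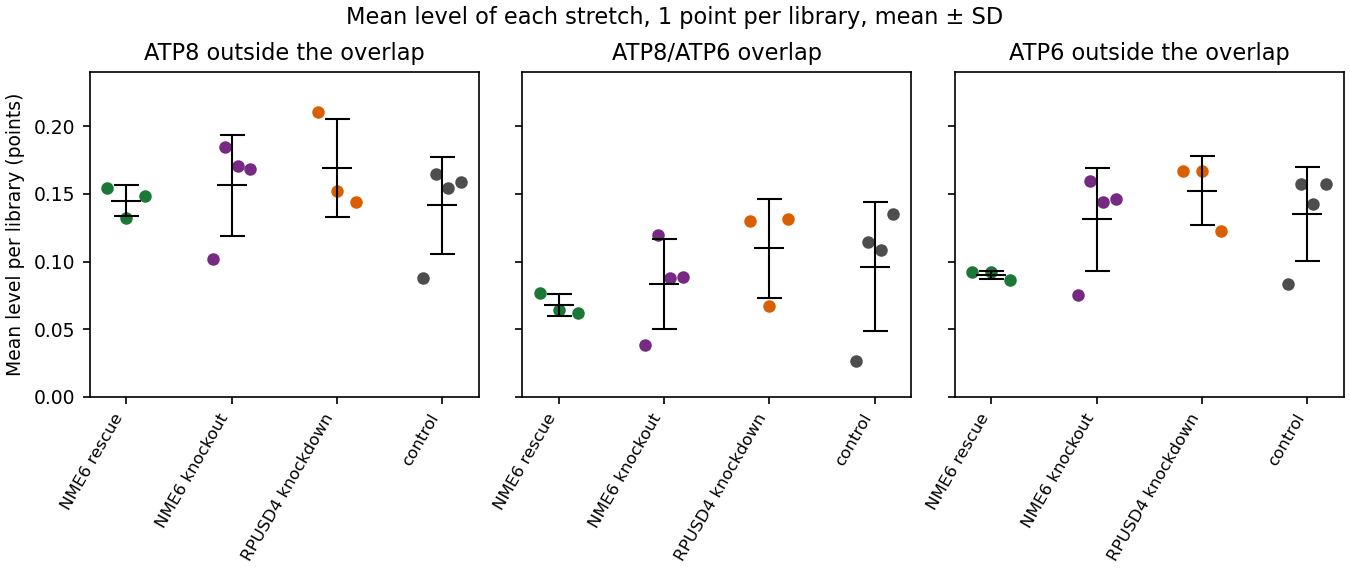
Mean level per library (vertical axis, percentage points) in ATP8 outside the overlap, in the overlap and in ATP6 outside the overlap, with the group mean and 1 SD. In ATP6 the rescued libraries lie between 0.0866 and 0.0920 points, and replicate 1 of the NME6 knockout and of the control are the lowest of their groups in each stretch.

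The ratio of both stretches within a library does not change when a library is multiplied by a common factor. The mean level of ATP8 outside the overlap was 1.68, 1.44 and 1.71 times that of ATP6 outside the overlap in the rescued libraries. The ratio was 1.35, 1.16, 1.19 and 1.15 in the NME6 knockout, 1.26, 0.910 and 1.18 in the RPUSD4 knockdown and 1.05, 1.05, 1.08 and 1.01 in the control. The rescued libraries were thus above all other 11 libraries, the replicates 1 included, and the NME6 knockout libraries were above all control libraries. With the 39 positions of at least 0.5 points left out, the rescued ratio was still 1.47 ± 0.157 (SD, n = 3), against 1.04 ± 0.127 in the NME6 knockout and 0.911 ± 0.0557 in the control (n = 4 each), and the rescued libraries, at 1.29 to 1.57, stayed above the others, the highest of which was 1.23. The separation of the NME6 knockout from the control was lost in that setting (lowest knockout library 0.952, highest control library 0.954). This ratio was chosen after the levels had been seen and has no test. As a background, the first 20.2% of bases was set against the rest in 10 other protein-coding genes of the same strand, with ND4L and ND4 taken apart. All rescued libraries were above all others in 1 of these genes, COX1, and below in 0. In how many of these genes the NME6 knockout separates from the control was not counted.

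By windows, the rescued mean was below the NME6 knockout mean in 13 of 17 and below the control mean in 15 of 17. All 3 rescued libraries were below all control libraries in 3 windows, and below all NME6 knockout libraries in 1. In 314 windows of 50 bases over the rest of the mitochondrial genome, the rescued mean was below the NME6 knockout mean in 77.1% and below the control mean in 81.5%. There all rescued libraries were below all control libraries in 15.3% (17.6% in this mRNA) and below all NME6 knockout libraries in 14.6% (5.88% in this mRNA). The RPUSD4 knockdown mean was above the control mean in 12 windows, and the NME6 knockout mean was above the control mean in 7. For these counts the windows of the rest of the genome were not counted. Over the whole mRNA the knockdown exceeded the control by 0.0190 points, and by 0.00139 points without control replicate 1.

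**Figure D4:**
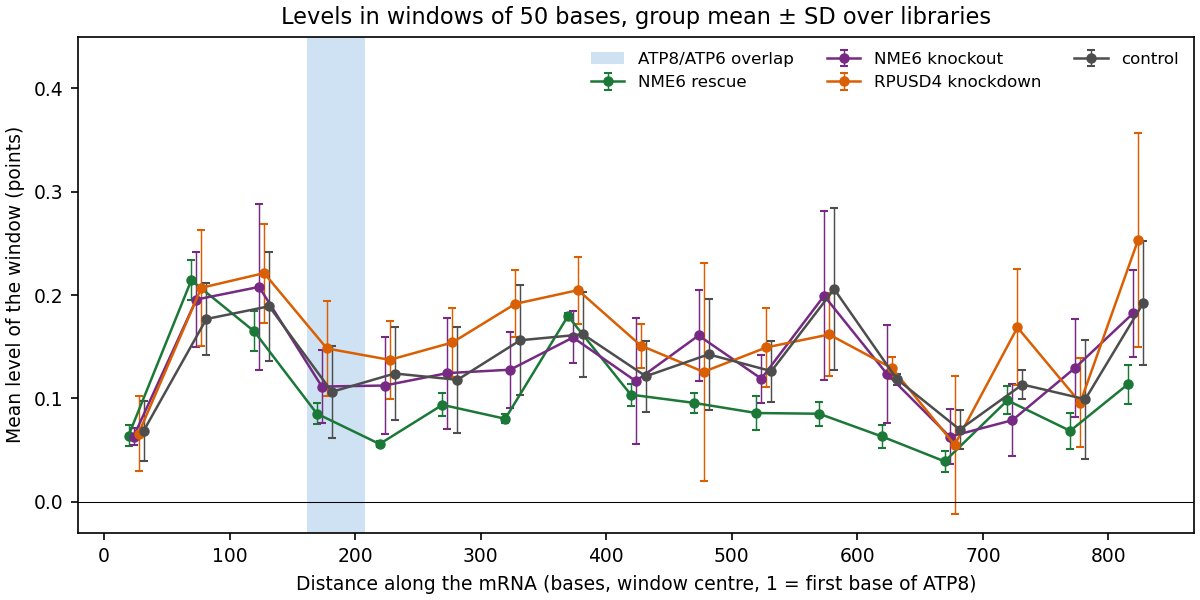
Mean level (vertical axis, percentage points) in consecutive windows of 50 bases along the mRNA (horizontal axis, window centre in bases from the first base of ATP8), as group means with 1 SD over libraries and the overlap shaded. The rescued mean reaches 0.214 points in its highest window, within ATP8, and is below the control mean in 15 of 17 windows.

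Group differences at single positions were tested with limma on the 149 positions of all mitochondrial RNAs with a mean of at least 1 point, with Benjamini-Hochberg adjustment over them. The mean used for this limit is over all 14 libraries, of which 3 are rescued, so a position can enter through the other groups. That favours positions where rescued cells are low, among the members and the 149 alike. At 8638, 8952 and 8953 the rescued means, 0.815, 0.525 and 0.563 points, were below the limit. The 5 positions described above are the members that were tested, and 0 of 5 passed an adjusted p of 0.05 in any comparison. The direction of each difference is the first-named group minus the second.

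In rescued cells against the NME6 knockout, 3.36% of the 149 positions passed. The 2 members with the lowest p were the neighbours 8952 and 8953. At 8952 the rescued mean was 0.525 ± 0.0274 points (SD, n = 3) and the knockout mean 1.34 ± 0.228 points (n = 4), a difference of -0.816 points (95% interval -1.35 to -0.283, limma adjusted p = 0.0797). At 8953 the means were 0.563 and 1.35 points, a difference of -0.787 points (95% interval -1.45 to -0.127, limma adjusted p = 0.195). Without replicate 1 of the NME6 knockout and of the control, both passed (limma adjusted p = 0.0316 and 0.0450), but so did 14.8% of all 149 positions. Limma's library weights had the same effect (adjusted p = 0.00596 and 0.0354), with 18.8% of the 149 positions passing. Position 8756 ran the other way, 1.30 points in rescued cells and 1.13 points in the NME6 knockout (95% interval of the difference -0.464 to 0.801), and the direction turned without the replicates 1.

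In rescued cells against the control, 2.68% of the 149 positions passed. The difference was -0.641 points at 8952 (95% interval -1.17 to -0.108, limma adjusted p = 0.375) and -0.673 points at 8953 (95% interval -1.33 to -0.0126, limma adjusted p = 0.480). Without control replicate 2 the difference at 8953 was -0.432 points. With library weights, 8638, 8952 and 8953 passed (limma adjusted p = 0.0300, 0.00358 and 0.00848), beside 19.5% of all 149 positions. Without the replicates 1 none of the 5 passed, with 8.05% of the 149 positions passing.

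In the NME6 knockout against the control, 0% of the 149 positions passed limma, while 7 had an unadjusted p under 0.05. None of these 7 is a member, and the differences of the members ran from -0.139 points at 8638 to 0.176 points at 8952. Their 95% intervals all included 0, the narrowest of them reaching from -0.318 to 0.669 points at 8952. Such intervals hold the differences compatible with these libraries, and the smallest difference that could have been called was not computed. Library weights left the members uncalled, with 1.34% of the 149 positions passing.

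In the RPUSD4 knockdown against the control, 0.671% of the 149 positions passed. The members with the lowest p were 8638, with 1.76 ± 0.413 points in the knockdown (SD, n = 3) and 1.15 ± 0.585 points in the control (n = 4), a difference of 0.614 points (95% interval -0.132 to 1.36, limma adjusted p = 0.499), and 8756, with 1.47 and 1.26 points (95% interval of the difference -0.425 to 0.840, limma adjusted p = 0.894). Single libraries moved both differences. At 8638 the difference was 0.333 points without control replicate 1 and 0.379 points without knockdown replicate 3, and at 8756 it was 0.0132 points without knockdown replicate 2 and 0.421 points without knockdown replicate 3. No member passed without the replicates 1 or with library weights either, where 4.7% and 4.03% of the 149 positions passed. In the NME6 knockout against the RPUSD4 knockdown, 3.36% of the 149 positions passed. There the difference at 8638 was -0.753 points (95% interval -1.50 to -0.00752, limma adjusted p = 0.512), and at 8756 it was -0.332 points (95% interval -0.964 to 0.301, limma adjusted p = 0.594). The second difference was -0.137 points without knockdown replicate 2, -0.545 points without knockdown replicate 3 and -0.147 points without NME6 knockout replicate 1. Again no member passed without the replicates 1 or with library weights, where 5.37% of the 149 positions passed under either setting.

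Exact two-sided permutation tests of the group means at the same 5 positions gave 25 values, of which the lowest was p = 0.0571, the smallest possible for 3 libraries against 4. After Benjamini-Hochberg adjustment over the 25 exact tests the lowest value was 0.357. For 4 libraries against 4 the smallest possible exact p is 0.0286 and the lowest observed was 0.400.

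**Figure D5:**
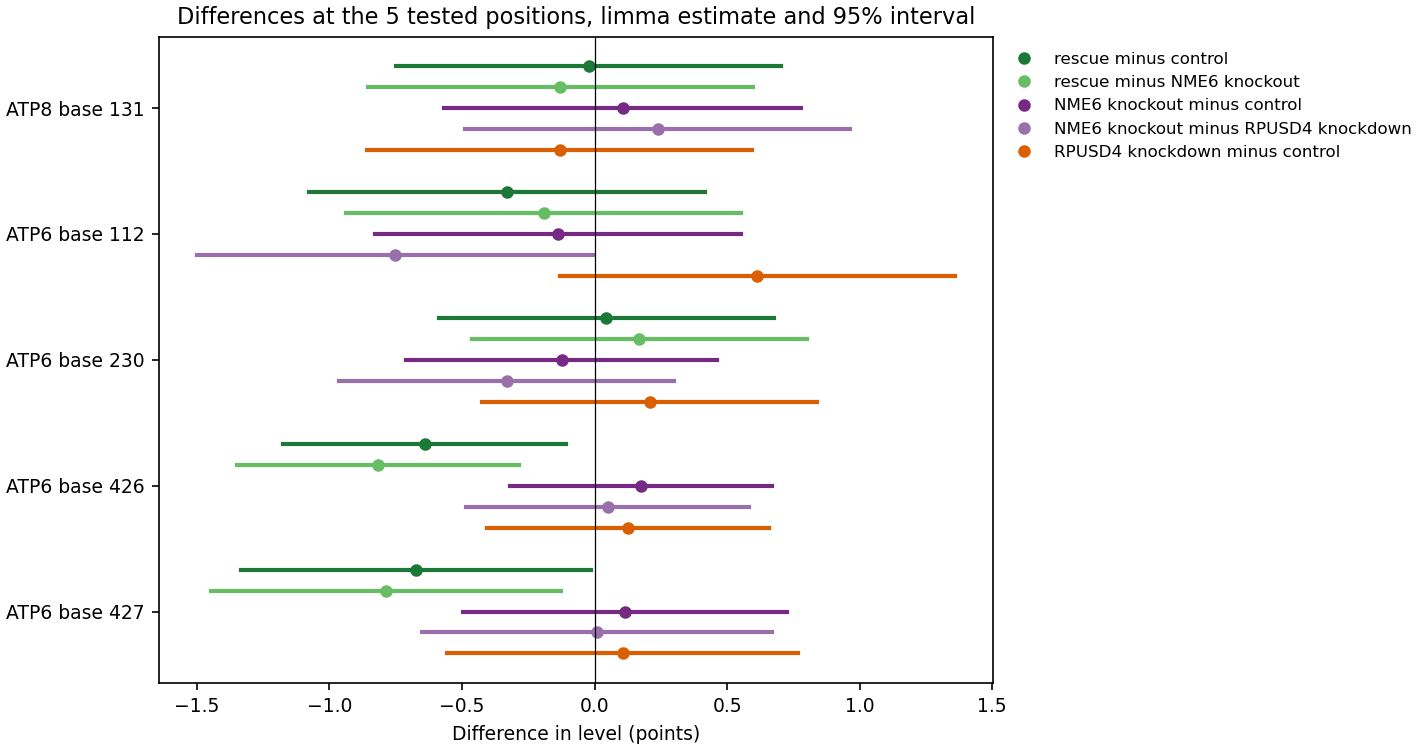
Difference in level (horizontal axis, percentage points) at the 5 tested positions for each of the 5 comparisons, as the limma estimate with its 95% interval. Intervals of both rescue comparisons at ATP6 bases 426 and 427 lie below 0, and no difference passed the adjusted threshold.

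Beyond the tested positions, groups were set against each other at the 39 members with a mean of at least 0.5 points, by whether the libraries of both groups overlapped, and against all 858 mitochondrial positions of that level. This mean is over all 14 libraries, of which 3 are rescued, so a position can pass through the other groups alone. That favours positions where rescued cells are low, among the 39 and the 858 alike. At 8473 and 9185, listed below, the rescued means were only 0.207 and 0.174 points. Rescued libraries were all below all NME6 knockout libraries at 9 of the 39 (23.1%, against 14.1% of the 858) and all above at 0 (against 4.2%). The 9 positions were 8432, 8473, 8490, 8731, 8952, 8953, 8977, 8978 and 9185, of which 3 lie in ATP8. Rescued libraries were all below all control libraries at 4 of the 39 (10.3%, against 14.3% of the 858), namely 8490, 8952, 8977 and 8978, and all above at 0 (against 3.15%). The largest of these differences outside the tested positions was at 9185, with 0.116, 0.326 and 0.0802 points in rescued libraries and 1.05, 0.651, 0.648 and 1.14 points in NME6 knockout libraries. The first share was above and the second below that of all positions of that level, and neither gap was tested.

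The other comparisons had few such positions. In the RPUSD4 knockdown, 1 of 39 was above all control libraries (against 4.08% of the 858) and 0 below (against 3.15%). In the NME6 knockout, 2 of 39 were above all control libraries (against 1.28%) and 0 below (against 2.56%). Position 8524, 3 bases before the ATP6 start codon, was in both counts. It had 0.552, 0.881, 0.561 and 0.651 points in the NME6 knockout, 0.689, 1.43 and 0.872 points in the RPUSD4 knockdown and 0.397, 0.505, 0.460 and 0.269 points in the control, which serves both comparisons. The other was 8432, with 1.001, 0.726, 0.678 and 0.674 points in the NME6 knockout, 0.784, 1.09 and 0.308 points in the RPUSD4 knockdown and 0.461, 0.482, 0.316 and 0.418 points in the control. The control means, 0.408 points at 8524 and 0.419 points at 8432, were below 0.5 points, so both positions passed that limit through other groups. Between the NME6 knockout and the RPUSD4 knockdown, 1 of 39 was lower without overlap (against 4.08%), which was 8638, and 0 were higher (against 2.91%).

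Relative to the mean of its own library, the mRNA was higher in the RPUSD4 knockdown than in the other groups. The ratio was 1.10 to 1.15 in the 3 knockdown libraries and 0.836 to 1.01 in the other 11. The same absence of overlap was found for ATP6 alone (1.07 to 1.11 against 0.765 to 0.987) and for ND2 (1.13 to 1.19 against 0.871 to 1.11). It was not found for ATP8 (0.922 to 1.28 against 0.874 to 1.33) or for any of the other 12 mitochondrial protein-coding and rRNA genes. The library mean includes 12S and 16S rRNA, whose own levels enter the ratio.

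The 11 other protein-coding genes of mitochondria encode subunits of complexes I, III and IV. Of their 10499 positions, 59 (0.562%) were tested, against 5 of 842 (0.594%) in the ATP8/ATP6 mRNA. A mean of 0.5 points was reached by 4.72% of their positions, against 4.63%. Of the 59 positions, 2 were higher and 2 lower in rescued cells than in the NME6 knockout, and 2 were higher and 1 lower than in the control. None passed in the other 3 comparisons. The rescued mean as a share of the control mean placed ATP8, overlap included, first of the 13 protein-coding genes (0.972) and ATP6 at rank 10 (0.669). The others lay between 0.561 for CYTB and 0.864 for ND2. Control replicate 1 is included in these shares.

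Over the 14 libraries, the mean level of the ATP8/ATP6 mRNA ran most nearly with that of ND4 (Pearson r = 0.953), ND4L (0.951) and COX2 (0.943), and the mean of all positions had 0.918. These points share libraries and their depth, and the values are a description. Across the 842 positions, rescued libraries correlated with each other at 0.803 to 0.830, control libraries at 0.491 to 0.825, NME6 knockout libraries at 0.349 to 0.739 and RPUSD4 knockdown libraries at 0.438 to 0.578, against 0.299 to 0.817 between libraries of different groups.

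Negative levels in the mRNA showed that libraries of a group share what was subtracted. Each of the 18 pairs of libraries from 1 group had between 2 and 33 identical negative values among the 842 positions (tolerance 1e-09), whereas 0 of the 73 pairs of libraries from 2 groups had any. Such values can arise where a CMC library had no altered read and the untreated profile did. The level so subtracted could be read at 19 positions of the NME6 knockout (up to 0.278 points), 18 of the rescued cells (up to 0.0401 points), 39 of the RPUSD4 knockdown (up to 0.0617 points) and 10 of the control (up to 0.0968 points). When all positions were tested without the limit on the mean, limma made 16 calls at 8 member positions, and 11 of these calls involved a group whose libraries held 1 identical value. At 9079, for example, all 4 NME6 knockout libraries were at -0.128 points and all 4 control libraries at 0. The share of all 14928 positions that passed without the limit was 1.05% in rescued cells against the NME6 knockout, 0.69% in rescued cells against the control, 0.482% in the NME6 knockout against the control, 0.509% in the NME6 knockout against the RPUSD4 knockdown and 0.241% in the RPUSD4 knockdown against the control.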

How the data were processed

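RNA of isolated mitochondria was CMC-treated before stranded total RNA libraries were prepared, per the labels' protocols. Per the submitters' processing notes, Trimmomatic, STAR and SAMtools were used (no versions) with GRCh38 and hg38. How altered reads were called was not stated in the labels or headers. For each library the authors deposited 1 score per position, 16570 in all, named as a difference in the file headers, without unit, depth or base. That their numbers are GRCh38 coordinates was assumed. The 6 untreated samples had no profile of their own here, and transcripts of the NME6 and RPUSD4 genes were not used.

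Levels were averaged over positions in Python 3.11.15 with pandas 2.3.3, and plotted with matplotlib 3.10.9. Positions whose mean over the 14 libraries was at least 1 entered a test by limma 3.58.1 under R 4.3.3 (all libraries in 1 fit, empirical Bayes with a trend), with Benjamini-Hochberg adjustment over 149 positions and a threshold of 0.05. Exact permutation tests used scipy 1.17.1. The limma fit was first tested on simulated data.

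Named were all tested members, the 5 highest of each stretch, the 2 lowest p per comparison, and the start and stop codon bases. Positions whose groups did not overlap, position 9204, the ratio of ATP8 to ATP6 and the calls without the limit were named after their values were seen. The members and lists were chosen with earlier results of these data known.

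The groups share replicate numbers. In the NME6 knockout and the control, same-numbered libraries deviated together across the tested positions (correlations 0.471, 0.286, 0.193 and 0.116). Among replicates 2 to 4, libraries of different numbers also did. Knockout replicate 2 and control replicate 4 had 0.246, and knockout replicate 4 and control replicate 2 had 0.121. Pairs of a replicate 1 with another number had -0.414 to -0.135. These values therefore do not show that the numbers pair replicates 2 to 4, and the labels state no pairing. In the other comparisons, same-numbered libraries did not deviate together.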

Additional observations from a re-analysis of the deposited data

Results flagged for a closer look

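A library far from the 3 others of its group was found in 7 of 55 groups of 4 libraries examined, by the gap to its nearest neighbour over the group's range. Chance gives about 1 in 20 for values without ties, a rate that does not apply to 5 of the 7, where 3 libraries are tied at 0. In ATP8 outside the overlap, control replicate 1 had a mean level of 0.0881 points, and the other control libraries 0.155 to 0.164 points. At position 8443 in ATP8, NME6 knockout replicate 1 had 0.133 points and the others 1.06 to 1.09 points. The remaining 5 were single libraries above 0 where the other 3 of their group were at exactly 0. At 8527, the first base of ATP6, this was NME6 knockout replicate 2 with 0.102 points. At 8570, in the ATP8 stop codon, NME6 knockout replicate 3 had 0.103 points and control replicate 2 had 0.172 points. At 9207, shared with COX3, NME6 knockout replicate 4 had 0.0694 points and control replicate 4 had 0.0770 points.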

How the results depend on the processing

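The absence of member calls held in all 5 comparisons with a limit of 0.5 points, with only the compared groups, without the trend, with scaled libraries, on a signed log2 scale and with any 1 library left out. Member calls appeared without a limit on the level (5 in rescued cells against the NME6 knockout, 2 in rescued cells against the control, 5 in the NME6 knockout against the control, 3 in the NME6 knockout against the RPUSD4 knockdown and 1 in the RPUSD4 knockdown against the control), with library weights (2 and 3 in the rescue comparisons) and without both replicates 1 (2 in rescued cells against the NME6 knockout). The cause was not tested. With the replicate number as a block, 0 members were called in all 5 comparisons. That fit called 0 positions of 149 in the NME6 knockout against the control, as without the block. It called 6, 3, 4 and 0 in the rescue comparisons, the NME6 knockout against the RPUSD4 knockdown and the RPUSD4 knockdown against the control, where the main fit called 5, 4, 5 and 1.

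Counts over all positions moved more. In rescued cells against the NME6 knockout, 156 passed without a limit, 2 scaled, 28 weighted, 11 on the signed log2 scale, 22 without the replicates 1 and 5 to 9 with 1 library left out. In rescued cells against the control, 103 passed without a limit, 29 weighted, 8 on the signed log2 scale, 12 without the replicates 1 and 3 to 6 with 1 library left out. In the NME6 knockout against the control, 72 passed without a limit and 2 weighted. In the NME6 knockout against the RPUSD4 knockdown, 1 passed with a limit of 0.5, 76 without a limit, 0 in the fit of only these groups, 0 scaled, 8 weighted, 8 without the replicates 1 and 0 to 5 with 1 library left out. In the RPUSD4 knockdown against the control, 36 passed without a limit, 6 weighted, 7 without the replicates 1, 0 to 2 with 1 library left out, and 0 with a limit of 0.5, in the fit of only these groups or scaled.

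The difference in mean level of the mRNA became, over positions other than 0, -0.127 points in rescued cells against the NME6 knockout, -0.0686 points in rescued cells against the control, 0.0589 points in the NME6 knockout against the control and 0.0601 points in the RPUSD4 knockdown against the control. As a share of positions above 1 point, it was -1.29, -1.14, -0.812 and 0.960 percentage points for the rescue comparisons, the NME6 knockout against the RPUSD4 knockdown and the RPUSD4 knockdown against the control. Scaled, the rescue differences were -0.00318 and -0.00537 points.

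Small differences at single positions turned sign. Scaling gave rescued cells 0.222 points at 8496 and 0.0578 points at 8638 against the NME6 knockout, and 0.303 points at 8496 against the control. Library weights gave -0.00936 points at 8756 in rescued cells against the NME6 knockout, 0.0442 points at 8756 in the NME6 knockout against the control and -0.0698 points at 8953 in the RPUSD4 knockdown against the control. Without the replicates 1 these 3 were -0.0163, 0.0556 and -0.105 points, and 8953 gave -0.00242 points in the NME6 knockout against the control. With 1 library left out, differences that turned ran over -0.415 to 0.147 at 8496, -0.0470 to 0.391 at 8952 and -0.105 to 0.347 at 8953 points for the RPUSD4 knockdown against the control. For the NME6 knockout against the control they ran over -0.0723 to 0.263 at 8496, -0.420 to 0.00600 at 8638, -0.249 to 0.0612 at 8756 and -0.0965 to 0.356 at 8953 points. For rescued cells against the NME6 knockout they ran over -0.285 to 0.0502 at 8496 and -0.0163 to 0.294 at 8756 points. For rescued cells against the control they ran over -0.163 to 0.0579 at 8496 and -0.00892 to 0.101 at 8756 points. For the NME6 knockout against the RPUSD4 knockdown they ran over -0.0400 to 0.521 at 8496, -0.215 to 0.223 at 8952 and -0.204 to 0.154 at 8953 points. The alternative on uridines alone was not run, since no base letters were used here. Read depth is unknown and limits what the many zeros can show.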
